A study of Mus musculus with 15 samples.

Results

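The genes described here encode the proteins of the cytosolic ribosome, measured as mRNA in the cortex of adult mice with and without the *Snord116* deletion. They were chosen by symbol alone, as all genes of the RNA-seq table named *Rpl*, *Rps* or *Rplp* followed by a digit, without the ribosomal S6 kinases (*Rps6k*) and without symbols marked as pseudogenes. This rule found 85 of the 23235 genes of the table. Of these, 46 are large-subunit genes, 31 are small-subunit genes, 7 are paralogs with symbols ending in l or l1, and 1, *Rps19bp1*, encodes a protein that binds the ribosomal protein S19 and is not itself a ribosomal protein. The rule misses ribosomal proteins with other names, among them *Rpsa*, *Fau* and *Gnb2l1*, which are given separately. The label held for all but *Rps19bp1*, and 81 of the 85 genes averaged 1 FPKM or more over the groups. FPKM counts sequenced fragments, scaled to the length of the transcript and to the number of fragments mapped in the library. The other 4 genes were *Rpl10l*, *Rpl39l*, *Rpl3l* and *Rps27*.

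A ribosome is made of a small subunit, which reads the mRNA, and a large subunit, which joins amino acids, and each of their proteins is needed in fixed proportion to the others. The mRNAs of these proteins are short and abundant, and they begin with a run of pyrimidines, the terminal oligopyrimidine (TOP) tract. Through this tract, the translation of the mRNAs depends on the kinase mTOR. Protein S6 of the small subunit is phosphorylated downstream of mTOR, and phospho-S6 is widely used as a readout of mTOR activity. Ribosomal protein genes have left many intron-less copies in mammalian genomes, which complicates the assignment of short reads.

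The RNA-seq table holds 4 groups of adult brain cortex. WT mice were C57BL/6J, and *Snord116del* mice were B6(Cg)-*Snord116*tm1.1Uta/J, labelled +/-. The latter lack the *Snord116* snoRNA cluster and its host transcript *116HG* on the paternal chromosome, and the authors describe this locus as silent on the maternal one. They also state that WT and *Snord116del* mice were littermates and that those used for RNA-seq were male. Tissue was taken at Zeitgeber (Zt) +6, in the light, from 3 WT and 2 *Snord116del* mice, and at Zt +16, in the dark, from 2 WT and 2 *Snord116del* mice. The table gives 1 pooled FPKM value per gene and group, so that the spread between mice is unknown, no difference could be tested, and the depth of single libraries cannot be read from it. The labels tie both *Snord116del* mice and 1 of the WT mice at Zt +6 to an earlier table and the other 6 mice to the table used here. They do not say whether these mice were processed apart.

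The sequences at the transcription start show what these genes have in common and where they vary. RefSeq windows on GRCm38.p6, from 250 bases before the start to 50 after it, were found for 63 of the 85 genes, with 75 windows. A run of at least 6 pyrimidines touched the 10 bases on either side of the start in 39 of the 75 windows (52%), against 29.2% of all 32851 windows. Runs of at least 10 pyrimidines were found in 23 windows (30.7%), against 6.97% of all. The 7-base motif CCGGAAG, bound by ETS-type factors and searched for on both strands, was in 25 windows (33.3%), against 8.86% of all. The TATA box, TATAAA on both strands, was in 7 windows (9.33%), against 13.6% of all. Shown are 30 bases, from 10 before the start to 20 from the start on, 5′ to 3′. The longest pyrimidine run at the start is in capitals, as far as it lies within these 30 bases. They belong to the 5 most abundant of the genes and to those with the largest differences between genotypes at Zt +6, as far as a window was found and could be shown.
*Rpl41*, chr10:128549149-128549178, minus strand: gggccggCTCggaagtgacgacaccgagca
*Rps21*, chr2:180257369-180257398, plus strand: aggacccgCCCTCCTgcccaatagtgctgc
*Rpl35*, chr2:39005112-39005141, minus strand: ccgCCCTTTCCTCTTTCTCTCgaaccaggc
*Rpl38*, chr11:114668570-114668599, plus strand: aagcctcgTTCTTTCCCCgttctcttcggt
*Rpl13*, chr8:123102340-123102369, plus strand: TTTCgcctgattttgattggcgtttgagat
*Rpl34*, chr3:130730318-130730347, minus strand: CTTTTCCTCTTCCggggacggtgctcagag
*Rpl26*, chr11:68901556-68901585, plus strand: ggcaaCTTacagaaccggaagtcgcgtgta
*Rps19bp1*, chr15:80264287-80264316, minus strand: cggaagtagCTCgccgcgtgtgggcggggc
*Rps6*, chr4:86857348-86857377, minus strand: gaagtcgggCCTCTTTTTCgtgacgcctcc
*Rpl7a*, chr2:26910797-26910826, plus strand: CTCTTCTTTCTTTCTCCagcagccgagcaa
*Rplp0*, chr5:115559457-115559486, plus strand: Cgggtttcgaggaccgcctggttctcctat
The run was 10 bases long in *Rps6*, 18 in *Rpl35*, and 3 in *Rpl41*, *Rpl26* and *Rps19bp1*. It was 21 in *Rpl7a*, 20 in *Rpl34*, 10 in *Rpl13* and 5 in *Rplp0*, and in these part of it lies before the bases shown. The start used by RefSeq need not be the one used in the cortex, and a few bases decide whether a run touches it.

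The 81 genes spanned a wide range of levels in each group. The lowest and the highest FPKM were 3.58 and 1384 in WT at Zt +6, 4.03 and 635 in *Snord116del* at Zt +6, 3.37 and 3141 in WT at Zt +16, and 4.48 and 5315 in *Snord116del* at Zt +16. Their median FPKM was 157, 119, 209 and 358 in the same order, while the median of all 10297 genes that averaged 1 FPKM or more (the tested genes) was 3.17, 5.63, 2.90 and 4.00. Thus, the ribosomal genes were lowest in *Snord116del* at Zt +6, the group in which the median gene was highest. Between 22 and 24 of them were among the 100 most abundant genes of each group. The large-subunit genes had a higher median level than the small-subunit genes in every group, with 179 against 120 FPKM in WT at Zt +6 and 391 against 275 FPKM in *Snord116del* at Zt +16.

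*Rpl41*, which encodes the smallest ribosomal protein, was the most abundant, with 1384, 635, 3141 and 5315 FPKM in WT Zt +6, *Snord116del* Zt +6, WT Zt +16 and *Snord116del* Zt +16. *Rps21*, of the small subunit, followed with 1335, 515, 2411 and 4670 FPKM, and *Rpl35*, of the large subunit, with 1093, 540, 2094 and 4560 FPKM. The same order of groups, *Snord116del* Zt +16, WT Zt +16, WT Zt +6 and *Snord116del* Zt +6 from high to low, was found in 56 of the 81 genes. In all, 73 of the 81 genes were highest in *Snord116del* at Zt +16, against 41.1% of all tested genes, and 61 were lowest in *Snord116del* at Zt +6, against 21.4% of all. 

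**Figure D1:**
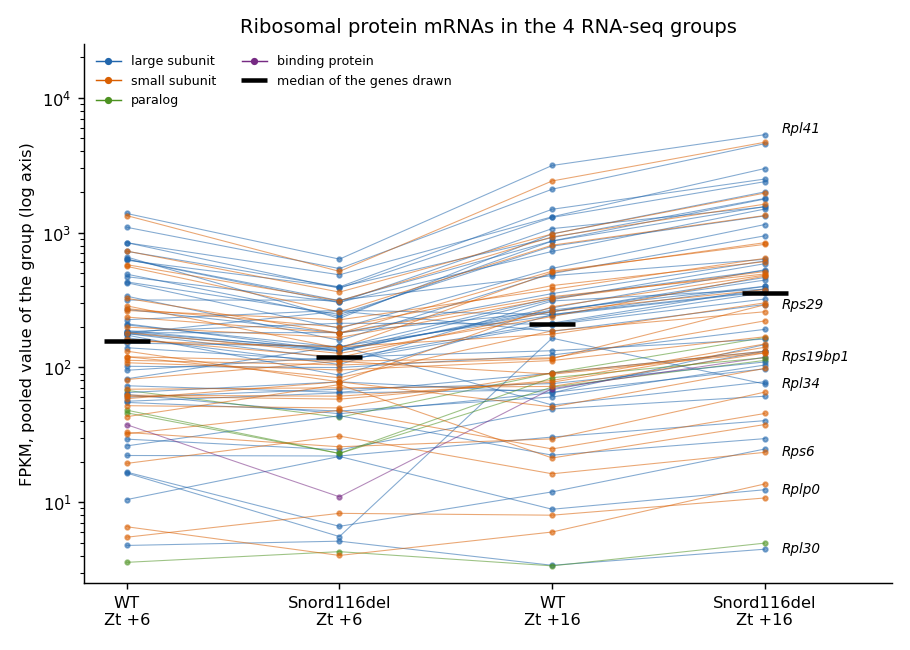
FPKM (log axis) of the 81 ribosomal protein genes that averaged 1 FPKM or more, in the 4 groups; each line is a gene, each point the pooled value of a group, and the black bars are medians, at 157, 119, 209 and 358 FPKM. Most lines dip at *Snord116del* Zt +6 and peak at *Snord116del* Zt +16, while those of *Rps6* and *Rplp0* do not.

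Together, the 85 genes took 12.6% of the FPKM sum in WT at Zt +6, 7.78% in *Snord116del* at Zt +6, 14.8% in WT at Zt +16 and 16.8% in *Snord116del* at Zt +16. Their summed FPKM was 20090, 12457, 31946 and 57345. The FPKM sum of all genes was itself unequal, at 159300, 160199, 216422 and 342188. The median log2 change of all tested genes from Zt +6 to Zt +16 was nevertheless -0.04 in WT and -0.24 in *Snord116del*. The 85 genes of the respiratory chain and ATP synthase moved in the same order, with 9.45%, 4.37%, 11.1% and 12.5% of the sum. Mitochondrial ribosomal protein genes (76) took 0.715%, 0.414%, 0.775% and 0.783%, and proteasome genes (40) took 0.453%, 0.357%, 0.447% and 0.423%. The dip in *Snord116del* at Zt +6 was therefore found in all 4 families.

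**Figure D2:**
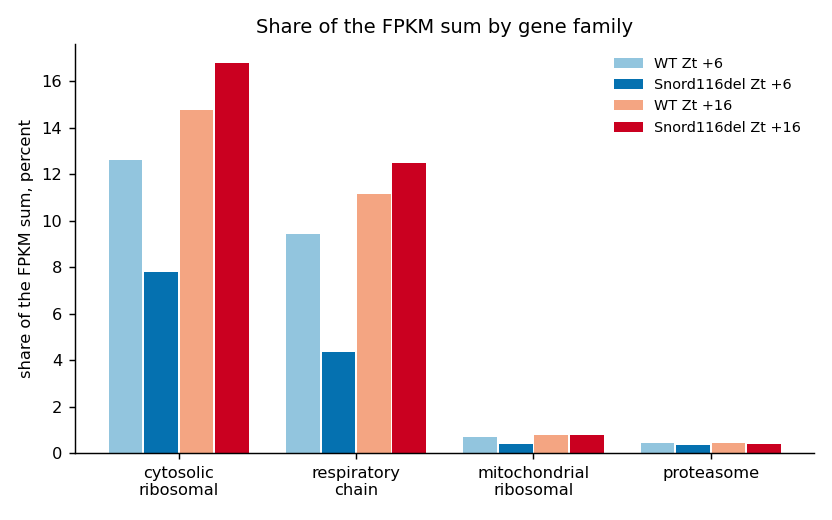
Share of the FPKM sum (percent, vertical axis) taken by 4 gene families (horizontal axis) in each of the 4 groups (bar colours), 1 pooled value per bar and no error. Ribosomal protein genes took 12.6%, 7.78%, 14.8% and 16.8%, and the lowest bar of each family is *Snord116del* at Zt +6.

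At Zt +6, 61 of the 81 ribosomal protein mRNAs had a lower FPKM in *Snord116del* than in WT cortex, while 7989 of the 10297 tested genes had a higher one. A gene is counted as higher or lower when FPKM + 1 was 1.5-fold apart or more and the higher group reached 1 FPKM. By this rule, 32 of the 81 genes (39.5%) were lower, where 7.62% of the 10297 tested genes were lower, and 5 were higher, where 49.3% of all were higher. The median log2 change of the 81 genes was -0.43, with quartiles of -0.88 and -0.0014, while the median of all tested genes was 0.57. Of the 46 large-subunit genes, 20 were lower and 3 higher (median -0.48), and of the 30 small-subunit genes tested, 8 were lower and 2 higher (median -0.24). The largest differences below WT were -1.69 for *Rps19bp1* (37.6 and 11.0 FPKM in WT and *Snord116del*), -1.51 for *Rpl36* (658 and 230 FPKM), -1.41 for *Rpl34* (16.5 and 5.56 FPKM), -1.37 for *Rps21* (1335 and 515 FPKM) and -1.22 for *Rpl26* (16.7 and 6.63 FPKM).

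The 5 genes that were higher in *Snord116del* at Zt +6 were not among the most abundant. *Rplp0*, which anchors the stalk of the large subunit that recruits elongation factors, was at 10.5 and 21.8 FPKM in WT and *Snord116del* (log2 change 1.00). *Rpl23a*, at the exit of the peptide tunnel, was at 82.2 and 144 FPKM (0.80), *Rps14* at 43.1 and 74.5 FPKM (0.78) and *Rpl7a* at 26.2 and 43.8 FPKM (0.72). *Rps6*, the gene of the phosphorylated protein S6, was at 19.4 FPKM in WT and 30.9 FPKM in *Snord116del* at Zt +6 (0.65), and at 16.3 and 23.4 FPKM at Zt +16 (0.50). It was thus higher in *Snord116del* at both times, past the 1.5-fold rule only at Zt +6. When every group was scaled to the same median, that is, to the same median FPKM of the tested genes, its change at Zt +6 was -0.15, and 0 of the 81 genes were higher. mRNA levels say nothing about the phosphorylation of the protein.

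Other members with known roles varied at Zt +6. The stalk proteins *Rplp1* and *Rplp2*, which bind *Rplp0*, were at 841 and 386 FPKM (log2 change -1.12) and 269 and 180 FPKM (-0.58) in WT and *Snord116del* at Zt +6, opposite in sign to *Rplp0*. *Rpl12*, at the base of the stalk, was at 151 and 143 FPKM (-0.08). *Rpl5* and *Rpl11*, which bind 5S rRNA and can stabilise p53, did not move together, with 60.0 and 68.9 FPKM (0.20) for *Rpl5* and 491 and 239 FPKM (-1.04) for *Rpl11*. *Rps27a*, made as a fusion with ubiquitin, was at 68.8 and 70.6 FPKM (0.03). *Rps19*, mutated in Diamond-Blackfan anaemia, was at 32.9 and 25.8 FPKM (-0.34), *Rps3* at 52.0 and 50.0 FPKM (-0.05), *Rpl10* at 182 and 136 FPKM (-0.41), *Rpl13a* at 430 and 247 FPKM (-0.80), and *Rpl38* at 840 and 486 FPKM (-0.79). Of these, *Rplp1*, *Rpl11*, *Rpl13a* and *Rpl38* passed the rule.

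The pattern at Zt +6 went with the length of the transcript and with the level of the gene. The 81 genes had a median transcript of 768 bases and the other tested genes one of 2810 bases. Among other genes with transcripts of 300 to 1000 bases, 40.6% of 811 were lower and 11.6% higher, with a median log2 change of -0.42, close to the -0.43 of the ribosomal genes. Genes of 1000 to 3000 bases had a median of 0.29 and genes of 3000 bases or more a median of 0.94, with 74.8% of the latter higher. Within the ribosomal genes, the 40 shorter ones had 21 lower and a median of -0.63, and the 40 others had 10 lower and a median of -0.19. Of the 434 other genes among the 500 most abundant, 50.5% were lower and 10.8% higher, with a median of -0.60. Across the ribosomal genes, the Spearman correlation with the log2 change was -0.58 for mean FPKM and 0.37 for transcript length. With the smooth trend on transcript length taken out, relative to a gene of median length, the median of the ribosomal genes was 0.47 and that of all genes 0.56, with 31 of 80 ribosomal genes higher, where 47.7% of all genes were, and 2 lower, where 2.12% of all were. The median at Zt +6 thus changed sign with this setting, as did the values of 10 of the genes named here that had been lower. With the groups first scaled to the same median and the length trend then taken out, which was chosen after seeing the data, the median stayed below 0, at -0.34 against -0.07 for all genes, with 8 ribosomal genes higher, where 9.57% of all were, and 28 lower, where 16.8% of all were. The parts of transcript length and of level in the difference were not tested, and with 1 value per group the genotype and the libraries cannot be told apart.

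**Figure D3:**
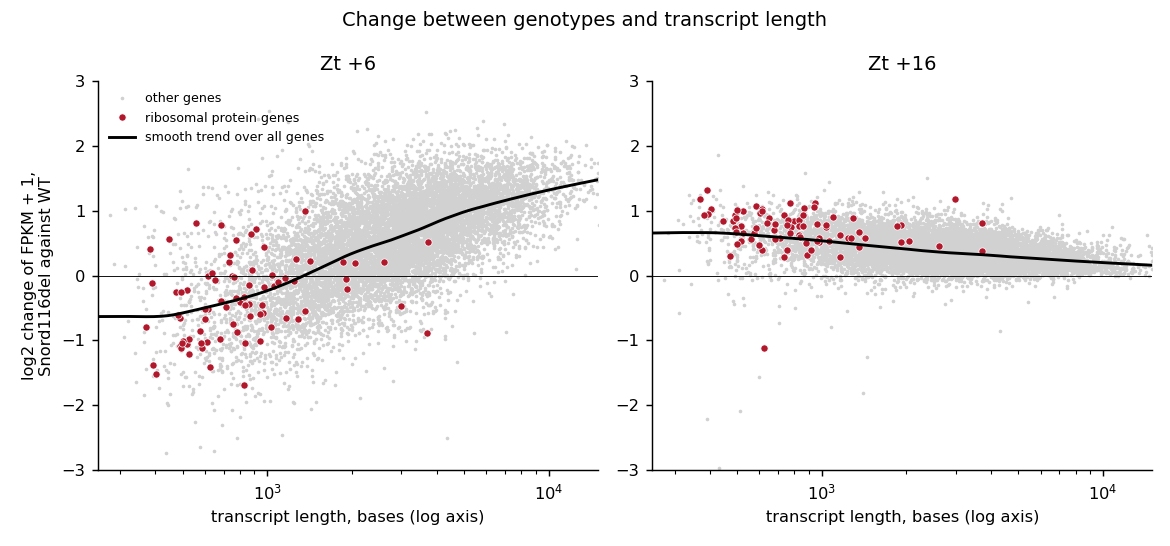
Log2 change of FPKM + 1 between *Snord116del* and WT (vertical axis) against transcript length in bases (horizontal log axis) at Zt +6 (left) and Zt +16 (right), for the ribosomal protein genes (red), the other tested genes (grey) and the smooth trend over all genes (black). At Zt +6 short transcripts lie below 0 and long ones above it, and the red points scatter around this trend; at Zt +16 the trend is flatter and slopes the other way.

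At Zt +16, 80 of the 81 genes had a higher FPKM in *Snord116del* than in WT, as had 9965 of all 10297 tested genes. In *Snord116del*, 54 of the 81 genes (66.7%) were higher, where 19.0% of all tested genes were, and 1 was lower, where 0.204% of all were. Their median log2 change was 0.76, against 0.35 for all genes. The largest differences were 1.32 for *Rps29* (116 and 291 FPKM in WT and *Snord116del*), 1.19 for *Rpl38* (1308 and 2982 FPKM) and 1.18 for *Rpl18* (64.8 and 148 FPKM), and the smallest positive ones were 0.28 for *Rpl9* (133 and 162 FPKM) and 0.29 for *Rpl7* (311 and 379 FPKM). The small-subunit genes had 22 of 30 higher (median 0.77) and the large-subunit genes 29 of 46 (median 0.75). Other genes with transcripts of 300 to 1000 bases had 49.6% higher and a median of 0.58, and the 434 other genes among the 500 most abundant had 62.4% higher and a median of 0.65. These calls depended on the scale of the groups, since the FPKM sum of *Snord116del* was the highest. With every group scaled to the same total, 1 of the 81 genes, *Rps29* at 0.66, was higher, where 0.311% of all genes were, and 1, *Rpl34*, was lower, where 0.991% of all were, with a median of 0.10 against -0.11 for all genes.

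In *Snord116del* against WT, 28 of the 81 genes were lower at Zt +6 and higher at Zt +16 (34.6%), a combination found in 4.55% of all tested genes. *Rps14* was the only one higher at both times, with 0.78 and 0.80, and *Rpl34* was the only one lower at both. Another 25 genes passed the rule at Zt +16 only, and 19 passed it at neither time. The 2 comparisons use different mice. The difference between them was not tested, since each group has 1 value. With every group at the same median, 68 of the 81 genes were lower at Zt +6, where 24.4% of all were lower and 15.0% higher, and 7 were higher and 1 lower at Zt +16, where 1.22% and 0.515% of all were. The combination of lower at Zt +6 and higher at Zt +16 was then found in 7 of the 81 genes, and it was found in 0 with every group at the same total and in 1 of 80 with the length trend removed.

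**Figure D4:**
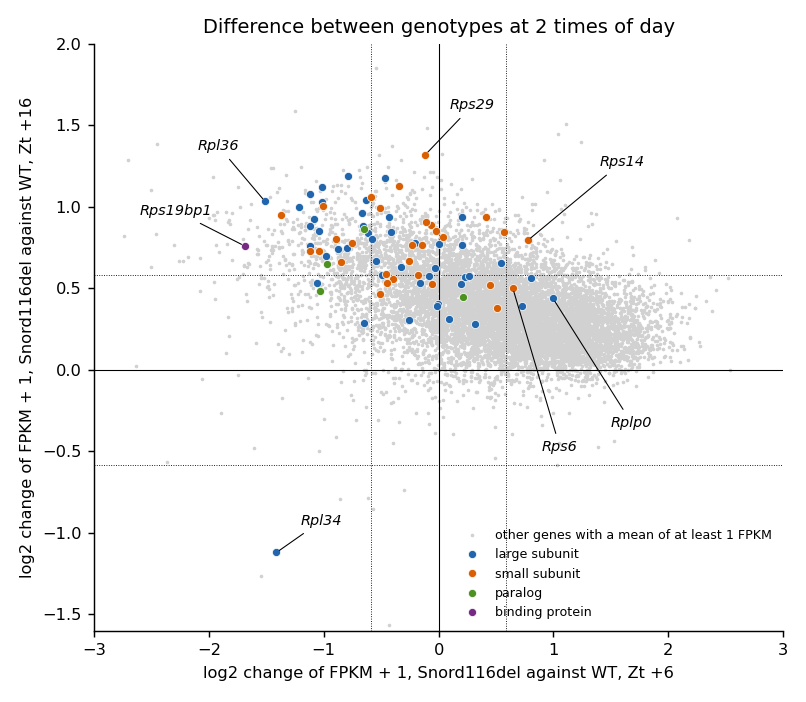
Log2 change of FPKM + 1 between *Snord116del* and WT at Zt +6 (horizontal axis) and Zt +16 (vertical axis) for the ribosomal protein genes (coloured by kind) and the other tested genes (grey), with dotted lines at 1.5-fold. The ribosomal genes lie between -1.69 and 1.00 at Zt +6 and above 0 at Zt +16, except *Rpl34* at -1.12.

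Between the 2 times of day, 68 of the 81 ribosomal protein mRNAs in WT and 74 in *Snord116del* had a higher FPKM in the dark. In WT, 29 of the 81 genes were higher at Zt +16 than at Zt +6, where 5.71% of all were, and 2 were lower, where 10.3% of all were. The median log2 change was 0.50, against -0.04 for all genes. *Rpl34* had the largest value, 3.25, followed by *Rpl41* with 1.18 and *Rps9* with 1.09, and the 2 lower genes were *Rps14* (-0.98) and *Rpl23a* (-0.64). Of the 434 other genes among the 500 most abundant, 37.1% were higher in WT, with a median of 0.48. Other genes with transcripts of 300 to 1000 bases had 24.7% higher and a median of 0.34. In *Snord116del*, 66 of the 81 genes were higher at Zt +16, where 25.0% of all were, and 3 were lower, where 39.1% of all were. The median was 1.61, against -0.24 for all genes. *Rps21* went from 515 to 4670 FPKM (3.18) and *Rps19bp1* from 11.0 to 119 FPKM (3.32), and the 3 lower genes were *Rps14* (-0.97), *Rpl23a* (-0.87) and *Rplp0* (-0.77). Of the 434 other abundant genes, 79.3% were higher in *Snord116del*, with a median of 1.75. Respiratory genes had 85.2% higher (median 1.86), and other genes with transcripts of 300 to 1000 bases 72.6% (median 1.36). Of 17 other mRNAs that carry a TOP tract or are grouped with them, 4 were higher and 7 lower (median -0.03). The time comparisons share their groups with the comparisons of genotype, so that the low values of *Snord116del* at Zt +6 enter both. With every group scaled to the same total, 4 of the 81 ribosomal genes were higher in WT, where 0.505% of all genes were. In WT, 9 were then lower, where 29.0% of all were. In *Snord116del*, 37 were then higher, where 8.31% of all were, and 15 lower, where 66.6% of all were. With quantile normalization the median in WT was -0.05, against 0.05 for all genes.

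The paralogs are of interest because several are known from testis or muscle rather than brain. *Rpl3l*, a muscle form of *Rpl3*, was at 0.16 to 0.60 FPKM, where *Rpl3* was at 141 to 522 FPKM. *Rpl10l* and *Rpl39l*, known from testis, were at 0.28 to 0.56 and 0.19 to 0.55 FPKM, where *Rpl10* was at 136 to 464 and *Rpl39* at 313 to 1772 FPKM. These 3 paralogs were at or below 0.24% of the sum of the pair in each group. *Rpl22l1*, in contrast, was the larger part of its pair, with 69.7%, 63.6%, 64.9% and 73.1% of the summed FPKM of *Rpl22l1* and *Rpl22* in WT Zt +6, *Snord116del* Zt +6, WT Zt +16 and *Snord116del* Zt +16. *Rpl36al* took 16.5% to 25.1% of its pair with *Rpl36a*, and *Rpl7l1* 1.07% to 3.93% of its pair with *Rpl7*. *Rps27*, which is a small-subunit gene, was at 0.07 to 0.62 FPKM in all groups, where its paralog *Rps27l* was at 48.2, 23.0, 83.9 and 118 FPKM. Whether reads of *Rps27* were placed elsewhere was not tested.

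Reads of these genes can be hard to place. The coding sequences of 84 of the 85 genes were compared with the mouse genome on NCBIM37 (mm9). At 90% identity or more over at least 80% of the coding sequence, 78 had at least 1 further uninterrupted copy outside their own gene, with 1019 copies in all and a median of 8.5 a gene, and 69 had a copy of at least 97% identity. *Rpl21* had 79 copies, *Rpl7a* 78, *Rpl29* 62 and *Rps2* 51, while genes such as *Rps3*, *Rpl8* and *Rps19bp1* had none. *Rps27*, below 1 FPKM in every group, had 13 copies, 2 of them of at least 97% identity. How the authors' tools divided reads between such copies is not given in the sources used here, so that single levels are uncertain. The 67 tested genes with a copy of at least 97% identity had a median change at Zt +6 of -0.41 and the 13 without one -0.43, and at Zt +16 the medians were 0.77 and 0.66. For Zt +16 against Zt +6, the medians were 0.47 and 0.67 in WT and 1.61 and 1.54 in *Snord116del*. In WT, 29.9% of those with a copy and 61.5% of those without were higher, where 5.71% of all genes were. The part of copies in these values was not tested. *Rpl34* shows the problem for a single gene. It was at 16.5, 5.56, 165 and 75.2 FPKM in WT Zt +6, *Snord116del* Zt +6, WT Zt +16 and *Snord116del* Zt +16, and the row *Rpl34-ps1*, which the rule leaves out, was at 265, 163, 338 and 792 FPKM. Their sum was 282, 169, 503 and 867 FPKM, and its log2 changes were -0.73 at Zt +6 and 0.78 at Zt +16, so that the single lower call at Zt +16 was lost.

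The genes have further features in common that the rule did not use. The 84 with a gene model spread over 19 chromosomes and are compact, with a median span of 3238 bases on mm9 against 16250 bases for the other genes. Of these, 29 hold annotated snoRNA genes, 55 in all, on their own strand, with 5 in *Rpl4* (chr9:64021194-64026369). *Rps6* lies at chr4:86500564-86503316 on the minus strand, *Rplp0* at chr5:116009476-116013736 on the plus strand and *Rps21* at chr2:179992082-179993150 on the plus strand, all on mm9. By direction at Zt +6, a pyrimidine run of at least 6 bases was found in 12 of 23 lower genes, 2 of 3 higher genes and 19 of 33 others with a window. The median run was 6, 10 and 6 bases in the same order. With 3 higher genes, these counts cannot show whether start sequences separate the directions.

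Genes that work with these proteins were counted by the same rule at Zt +6. Among the ribosomal proteins the rule misses, *Rpsa* was higher (48.2 and 73.1 FPKM in WT and *Snord116del*, log2 change 0.59), and *Fau* (-0.53) and *Gnb2l1* (0.24) did not pass the rule. Of 17 other mRNAs that carry a TOP tract or are grouped with them, 7 were higher and 1 lower, with a median of 0.57. *Eef2*, the elongation factor that moves the ribosome along the mRNA, was at 71.5 and 148 FPKM (1.04) and *Pabpc1*, the poly(A)-binding protein, at 14.9 and 34.8 FPKM (1.17), while *Naca* was at 99.8 and 54.4 FPKM (-0.86). The median of these 17 mRNAs was close to that of all genes, 0.57, where the ribosomal genes had -0.43. Of the 17, 15 had a change above 0 and 2, *Naca* and *Tpt1* (-0.32), one below 0. They were not matched to the ribosomal genes for transcript length or level, and what sets them apart was not tested. For all 3 lists the shares of all genes, 49.3% higher and 7.62% lower, are the background. Of 10 tested S6 kinases and regulators of TOP translation, 7 were higher and 0 lower, with 0.94 and 2.98 FPKM for the S6 kinase *Rps6kb1* (1.04) and 6.91 and 12.2 FPKM for *Larp1*, which binds TOP tracts (0.74). Of 26 tested ribosome assembly factors, 11 were higher and 4 lower (median 0.40), and the 4 were *Nop10*, *Nhp2*, *Bop1* and *Eif6*.

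The values of the other families were compared with those of the ribosomal genes without a test. Their median transcripts were 861 bases for the respiratory, 1112 for the mitochondrial ribosomal and 1435 for the proteasome genes. At Zt +6, 47 of 81 tested respiratory genes (58.0%) were lower and 6 higher (median -0.71), 29 of 74 mitochondrial ribosomal genes (39.2%) were lower and 1 higher (median -0.41), and 9 of 36 proteasome genes were lower and 7 higher (median -0.20). At Zt +16, 61 of the respiratory, 33 of the mitochondrial ribosomal and 15 of the proteasome genes were higher and 0 lower, with medians of 0.69, 0.55 and 0.54. At that time the TOP list had 5 of 17 higher (median 0.48), the kinase list 2 of 10 (0.30) and the assembly list 4 of 26 (0.29). Of all tested genes, 49.3% were higher and 7.62% lower at Zt +6, with a median of 0.57. At Zt +16, 19.0% of all were higher and 0.204% lower, with a median of 0.35.

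The cortex label was checked on marker genes. The summed FPKM of 5 neuronal markers was 514 to 714 in 3 groups and 891 in *Snord116del* at Zt +6, and of all the markers used only 1 choroid plexus gene and 1 haemoglobin gene were under 1 FPKM in every group. In *Snord116del* at Zt +6, where the ribosomal genes were lowest, the sums of 4 astrocyte markers (90.1 FPKM, 13.5 to 30.0 in the other groups), 4 endothelial markers (13.5, against 1.83 to 4.23) and 2 haemoglobin genes (89.4, against 18.9 to 36.8) were the highest of the 4 groups. The sums of the neuronal, 4 microglial (40.3 FPKM, against 22.2 to 35.8) and 4 striatal markers (28.5, against 12.8 to 23.1) were highest there too, so that 6 of the 8 marker sets were. The median of all tested genes was likewise highest in that group, at 5.63 FPKM, against 2.90 to 4.00 FPKM in the others. The 4 oligodendrocyte markers summed to 383 to 926 FPKM and were highest in *Snord116del* at Zt +16. The 3 choroid plexus markers were higher in both Zt +6 groups (201 and 185 FPKM) than at Zt +16 (25.7 and 30.6 FPKM). The part of these differences in the ribosomal results was not tested, and in bulk tissue fewer cells of a type and less RNA per cell cannot be told apart.

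Chromatin isolation by RNA purification (ChIRP) pulls down an RNA with biotinylated oligos and sequences the DNA that comes with it, and was used on whole adult brain to find loci near *116HG*. There were 2 libraries with *116HG* oligos on WT brain and single control libraries with *116HG* oligos on *Snord116del* brain and with non-specific (NSC) oligos on each genotype. Of the 84 ribosomal genes with a gene model, 20 (23.8%) had a replicated *116HG* peak within 2 kb, that is, a peak of replicate 1 within 10 kb of one of replicate 2, where 10.9% of 21853 genes had one. The libraries disagreed on these genes. A peak of replicate 1 lay within 2 kb of 81 of the 84 (96.4%), where 59.3% of all genes had one, but a peak of replicate 2 lay within 2 kb of 6 (7.14%), where 13.8% of all had one. In the controls, 0 of the 84 had a WT NSC peak, where 2.30% of all genes had one, 2 had a *Snord116del* *116HG* peak (2.26% of all) and 7 a *Snord116del* NSC peak (7.86% of all). Where the peaks of both replicates had to share a base, 0 ribosomal genes had a replicated peak, where 3.32% of all genes had one.

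The peaks of replicate 1 at these genes followed the exons. Of 356 peaks of replicate 1 centred inside the ribosomal genes, 336 (94.4%) were centred in an exon, as were 81.3% of those inside other genes and 85.5% of those inside the 422 other genes among the 500 most abundant. In all, 81 of the 84 genes had at least 1 such peak, where 46.7% of all genes had one. The 3 without were *Rpl3l*, *Rpl10l* and *Rpl39l*, which are also the paralogs listed below 1 FPKM. *Rps27*, also below 1 FPKM, had 2 such peaks. Of the 422 abundant other genes, 98.3% had such a peak. In replicate 2, 2 peaks were centred inside ribosomal genes and 0 of them in an exon. The intron-less copies of the coding sequences, which lie outside the parent gene, showed the same, with a replicate 1 peak over 332 of the 341 copies of at least 97% identity (97.4%) and over 653 of all 1019 copies (64.1%), and a replicate 2 peak over 7 of the 341 (2.05%).

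*Rps6* had 3 peaks of replicate 1 over its exons, at chr4:86500563-86500851, chr4:86501731-86501911 and chr4:86502046-86502259 on mm9, with the authors' fold over input at 123, 185 and 71.8. *Rpl13a* (chr7:52380928-52391787) had 5 such peaks within 10 kb of a replicate 2 peak, with a fold between 82.1 and 503. Of the genes with replicated peaks, *Rpl24* and *Rps3a* had the replicate 2 peak in an intron of the gene model used (chr16:55989099-55989182 and chr3:85943660-85943738), and *Rps3*, *Rps25*, *Rps26* and *Rps19bp1* had it outside the gene within 2 kb. The model of *Rpl24* is unusually long, at chr16:55966388-56009026 with 11 exons, where the median span of the ribosomal genes was 3238 bases. Whether its peaks belong to *Rpl24* itself was not tested. The other 14 had no peak of replicate 2 within 2 kb and counted as replicated through the 10 kb window. Where signal over exons and copies comes from was not tested.

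**Figure D5:**
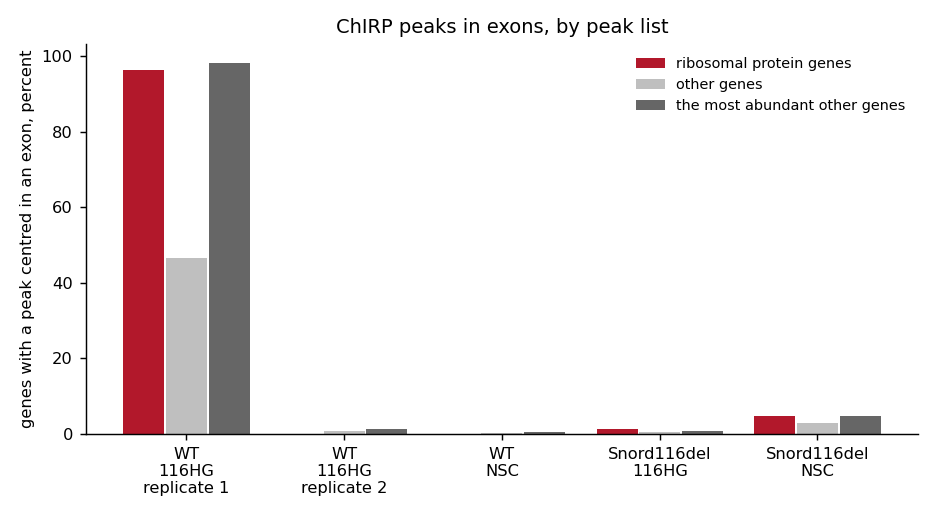
Percent of genes with a ChIRP peak centred in an exon (vertical axis) in each of the 5 peak lists (horizontal axis), for the 84 ribosomal protein genes (red), all other genes with a gene model (light grey) and the 422 other genes among the 500 most abundant (dark grey). In WT *116HG* replicate 1 the bars reach 96.4%, 46.5% and 98.3%, and in the other 4 lists none reaches 5%.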

How the data were processed

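RNA-seq of mouse cortex in 4 groups and the peaks of 5 ChIRP-seq libraries of whole brain were used. RNA-seq reads had been aligned to mm9 with TopHat2 2.0.5, and the authors deposited 1 Cuffdiff 2.0.2 FPKM value per group and gene, pooled over 3 mice (WT, Zt +6) or 2 mice (the other groups). Cuffdiff divides by transcript length and by library size, and its other settings are not given in the sources used here. The columns of the authors' own comparisons (log2 fold change, q-value and call) were not used here, and 0 columns of single mice were left out. The peak positions and, except for WT *116HG* replicate 2, a fold over input per peak (a ratio) were deposited by the authors from Bowtie2 2.0.0 alignments to mm9 and MACS 1.4.2, called per library. Tool versions are from the submitters' processing notes.

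FPKM + 1 was compared on the log2 scale, which understates differences of low genes. The 10297 genes that averaged 1 FPKM or more were used, and a gene was counted when the groups were 1.5-fold apart or more and the higher one reached 1 FPKM. This rule has no error rate, and no p-value, SD or interval was possible with 1 value per group. The limma fit for values per mouse could not be used for the same reason. Most counts of genes called higher or lower are set beside those of all genes. Gene models, transcripts and snoRNAs were taken from GENCODE M1 on NCBIM37, which is mm9. By symbol, 84 of the 85 genes and 21853 of 23235 in all were matched, and a transcript length was at hand for 98.7% of those tested. The transcript named -001 was used, otherwise that of the longest coding sequence. The length trend was a lowess curve (fraction 0.3) on log length. Copies were found with BLAST 2.17.0. Start sequences are RefSeq windows on GRCm38.p6, and no coordinate was moved between builds. The software was pandas 2.3.3, numpy 2.4.6, statsmodels 0.14.6 and matplotlib 3.10.9 under Python 3.11.15. The fold rule and the length trend were tested on simulated data.

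The genes and lists were chosen with earlier results of these data known. The genes named are ribosomal proteins with known roles, the paralogs with their partners, the 5 largest and 5 smallest log2 changes between genotypes at Zt +6, 3 and 3 in each other comparison and the 5 most abundant. Other genes were named from the lists of related genes, as examples chosen after their values were seen. Alternatives covered the pseudocount, the filter, the scale of the groups, transcript length, the paralogs, the fold and the rule for peaks.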

Additional observations from a re-analysis of the deposited data

Results flagged for a closer look

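The difference between *Snord116del* and WT had opposite directions at the 2 times of day for 28 of the 81 ribosomal protein genes, which were lower at Zt +6 and higher at Zt +16. This was set apart because the genotypes differ in opposite ways at the 2 times. The difference between the times was not tested, since each group has 1 pooled value. The combination was found in 4.55% of all tested genes. It depended on the scale of the groups, with 7 of the 81 genes (0.855% of all) at the same median, 0 at the same total (0.0971% of all), 0 with quantile normalization (0.155% of all) and 1 of 80 with the length trend removed (0.894% of all). Short transcripts of other genes moved the same way, with medians of -0.42 at Zt +6 and 0.58 at Zt +16 for those of 300 to 1000 bases. So did the 434 other genes among the 500 most abundant, with medians of -0.60 and 0.65.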

How the results depend on the processing

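No paired analysis was possible because the table holds 1 value per group and no mouse of its own. Of the counts, medians and shares recomputed, 68 values stayed within 1.5 times the value reported, 51 moved further and 2 changed sign, and of the values for single genes 352 stayed within 1.5-fold, 157 moved further without a change of sign in a called gene and 19 changed sign in one. For *Snord116del* against WT at Zt +6, the median log2 change was -1.26 with groups at the same median (0 higher, 68 lower), -0.18 with quantile normalization (9 higher, 16 lower) and 0.47 with the length trend removed (31 higher, 2 lower). All tested genes moved too, with 15.0% higher and 24.4% lower, 22.2% and 20.6%, and 47.7% and 2.12% under these settings, and medians of -0.060, 0.030 and 0.56. At least 2-fold gave 0 higher and 17 lower (26.7% and 3.05% of all). The same median with the length trend removed, chosen after seeing the data, gave 8 higher, 28 lower and a median of -0.34, where 9.57% and 16.8% of all were called and their median was -0.068. The cause of the change of sign was not tested. With the same median, *Rpl23a* was at -0.020, *Rpl7a* at -0.085, *Rps14* at -0.040 and *Rps6* at -0.15. With the length trend removed, *Rpl13* was at 0.058, *Rpl22l1* 0.49, *Rpl36a* 0.54, *Rpl36al* 0.14, *Rpl38* 0.40, *Rpl39* 0.028, *Rpl7* 0.030, *Rplp1* 0.018, *Rps27l* 0.10 and *Rps9* 0.20.

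At Zt +16, the count of higher genes and the median were 7 and 0.29 with the same median, 1 and 0.10 with the same total, and 1 and 0.062 with quantile normalization, where 1.22%, 0.311% and 0.389% of all genes were higher. The length trend removed gave 31 higher (14.3% of all), at least 2-fold 11 (1.22% of all), and the same median with the length trend removed 2 (0.639% of all), with a median of 0.14. *Rpl36al* was at -0.0032 with the same total, -0.0084 with quantile normalization and -0.015 with the same median and the length trend removed, and *Rpl13* and *Rpl13a* were at -0.059 and -0.018 with quantile normalization.

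For Zt +16 against Zt +6 in WT, 1 was lower with the same median, where 9.48% of all genes were. The same total gave 4 higher, 9 lower and a median of 0.060, quantile normalization 1 higher and -0.048, the length trend removed 8 higher, 6 lower and 0.13, at least 2-fold 4 higher and 0 lower, and the same median with the length trend removed 11 higher, 5 lower and 0.24. In *Snord116del*, 0 were lower with the same median or at least 2-fold, where 26.5% and 26.1% of all genes were. The same total gave 37 higher, 15 lower and 0.53, quantile normalization 20 higher, 14 lower and 0.26, the length trend removed 26 higher, 15 lower and 0.22, and the same median with the length trend removed 42 higher, 10 lower and 0.68. Under the same total, 0.505% of all genes were higher and 29.0% lower in WT, and 8.31% and 66.6% in *Snord116del*. Their medians were -0.37 and -1.09. With quantile normalization, 3.94% and 7.89% of all were higher and lower in WT, and 30.2% and 28.2% in *Snord116del*. The length trend removed gave 2.89% and 7.08%, and 17.7% and 33.4%. The same median with the length trend removed gave 6.4% and 6.63%, and 31.1% and 19.6%. At least 2-fold gave 0.466% and 2.32% in WT. The genes with a replicated *116HG* peak numbered 0 with direct overlap (3.32% of all) and between 6 and 81 when 1 replicate was left out. The shares of the FPKM sum moved by less than 1.5 times under each alternative.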
